A study of Homo sapiens with 12 samples.

Results

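The genes described here are 10 genes of retinoid oxidation, reduction and binding, namely DHRS3, DHRS9, RETSAT, RDH10, RDH11, RDH13, RDH14, CYP26A1, CYP26B1 and CRABP2. They were taken by symbol from a table of 58233 genes, in which each of the 10 symbols had a row. The table holds the expression of HL-60 cells, an established human myeloid leukaemia line that carries no engineered change per the labels (genotype wt). Polyadenylated RNA was sequenced after 3 h in 4 groups of 3 libraries each: untreated cells, cells given 100 nM all-trans retinoic acid (ATRA), cells given 500 nM palbociclib, which inhibits CDK4 and CDK6 (kinases of the cell cycle), and cells given 100 nM ATRA with 500 nM palbociclib (the combination). The comparisons below ask how the enzymes and binding protein that make, store and clear retinoic acid differed in expression between these treatments, alone and together.

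Retinoid metabolism turns vitamin A (retinol) into retinoic acid in successive oxidations. Dehydrogenases such as RDH10 carry the first and reversible step to retinaldehyde, and reductases such as DHRS3 run it backwards and so hold retinaldehyde away from oxidation to the acid. Retinoic acid binds the retinoic acid receptors, nuclear receptors that sit on paired hexamer motifs in DNA, and CYP26 enzymes clear it by hydroxylation. In several tissues the genes of this clearing and reducing arm are themselves targets of retinoic acid.

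Levels are in RPKM (reads scaled by gene length and by library size), deposited as whole numbers, so that a difference of 1 RPKM is the smallest the table can show and a gene listed at 0 lies below that step. The sums of RPKM over all genes lay between 358455 and 390247 per library, read depth per library is not given by the table, and no counting interval is given. Of 7 myeloid marker genes, 6 were above 5 RPKM in all 12 libraries, led by the myeloperoxidase gene MPO at 1077 to 1579 RPKM. The remaining one, ELANE, was at 0 or 1 in every library. Markers of T cells, erythroid cells and epithelial and stromal cells were at 0 in every library, and 2 of 3 B cell markers were too, the third being at 1 or less. The marker sums therefore carried no signal of another cell type above the rounding step, except that the B cell sum was 1 in each library with ATRA and 0 in each library without it, and its part in the results was not tested. The labels do not say whether replicates came from separate cultures, so the p-values below measure only the spread between these libraries, which may be technical.

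DHRS3 was the member that responded to ATRA, and the sequence before its gene start is shown because the response concerned this gene. DHRS3 lies at chr1:12567910-12618210 on the minus strand of GRCh38 (GENCODE v44). The 250 bases before its start, chr1:12618211-12618460 read on the minus strand from RefSeq's promoter window (GRCh38.p14), were searched on both strands for the receptor hexamer AGGTCA, for its variant AGTTCA, for a further variant GGGTCA and for the last variant GGTTCA.

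DHRS3 promoter: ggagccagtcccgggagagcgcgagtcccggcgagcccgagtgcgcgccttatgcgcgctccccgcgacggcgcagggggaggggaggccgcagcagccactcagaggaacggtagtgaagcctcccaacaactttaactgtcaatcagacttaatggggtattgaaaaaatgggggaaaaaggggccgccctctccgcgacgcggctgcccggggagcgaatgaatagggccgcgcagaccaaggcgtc

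None of the hexamers occurred in it, and nothing is in capitals for that reason. RefSeq lists 2 further start sites for DHRS3, both inside the gene, and the window of each held 1 hexamer. GGTTCA lay 167 bases before the start at chr1:12616789 on the strand of the gene, and AGGTCA lay 166 bases before the start at chr1:12596613 on the opposite strand. Across the 35116 promoter windows of the same table, each 300 bases long, 38.6% held at least 1 of the hexamers. A pair of hexamers in the same direction with 5 bases between them (DR5) was present in 31 windows, or 0.0883%. One of them belonged to CYP26A1, and none belonged to the other members searched (16 windows of 9 members, RDH10 not being searched in these windows).

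Over a wider stretch, within 10000 bases on either side of the gene start in GRCh38, 4.24% of 20033 protein-coding genes held a DR5. CYP26A1 held 3, DHRS9 held 1 and RDH13 held 1, and none was found for the other 7 members, DHRS3 included. The 5 sites are given below with the hexamers in capitals, to show which members carry the motif. Distances are from the gene start in GENCODE. The CYP26A1 site at chr10:93073803-93073819 is the same DR5 as that of its promoter window above. There it lies 74 bases before a further start site of RefSeq at chr10:93073893.

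CYP26A1, chr10:93071917-93071933, plus strand, 1550 bases upstream: GGGTCAcaggcGGGTCA

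CYP26A1, chr10:93070522-93070538, minus strand, 2945 bases upstream: GGTTCActaagGGGTCA

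CYP26A1, chr10:93073803-93073819, minus strand, 336 bases downstream of the gene start: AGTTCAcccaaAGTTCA

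DHRS9, chr2:169069901-169069917, minus strand, 5120 bases downstream of the gene start: AGGTCAcaccgAGGTCA

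RDH13, chr19:55063806-55063822, minus strand, 7477 bases downstream of the gene start: AGTTCAggcagAGTTCA

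The pair with 2 bases between the hexamers (DR2) was found once for DHRS3, 7893 bases downstream of its gene start, but 61.4% of all genes held a DR2 in this stretch. The pair with 1 base between (DR1) was found for CRABP2, 218 bases upstream, against 8.0% of all genes. These matches describe letters in the reference and say nothing of binding in these cells.

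With ATRA, DHRS3, which encodes a retinaldehyde reductase of the short-chain dehydrogenase family, went from the rounding step to the highest level of the 10 genes. In untreated cells its values were 0, 1 and 0 RPKM, and with ATRA they were 40, 48 and 47 RPKM. With palbociclib they were 1, 1 and 0 RPKM, and with the combination 41, 50 and 49 RPKM. Every library with ATRA was at 40 RPKM or above and every library without it at 1 or below, so the groups did not overlap. How many of all genes had groups without overlap was not computed. The means were 0.333 ± 0.577 RPKM untreated, 45.0 ± 4.36 with ATRA, 0.667 ± 0.577 with palbociclib and 46.7 ± 4.93 with the combination (SD, n = 3 each). RNA from all cells of a culture was measured together, so fewer cells that express a gene cannot be told apart from less RNA per cell.

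**Figure D1:**
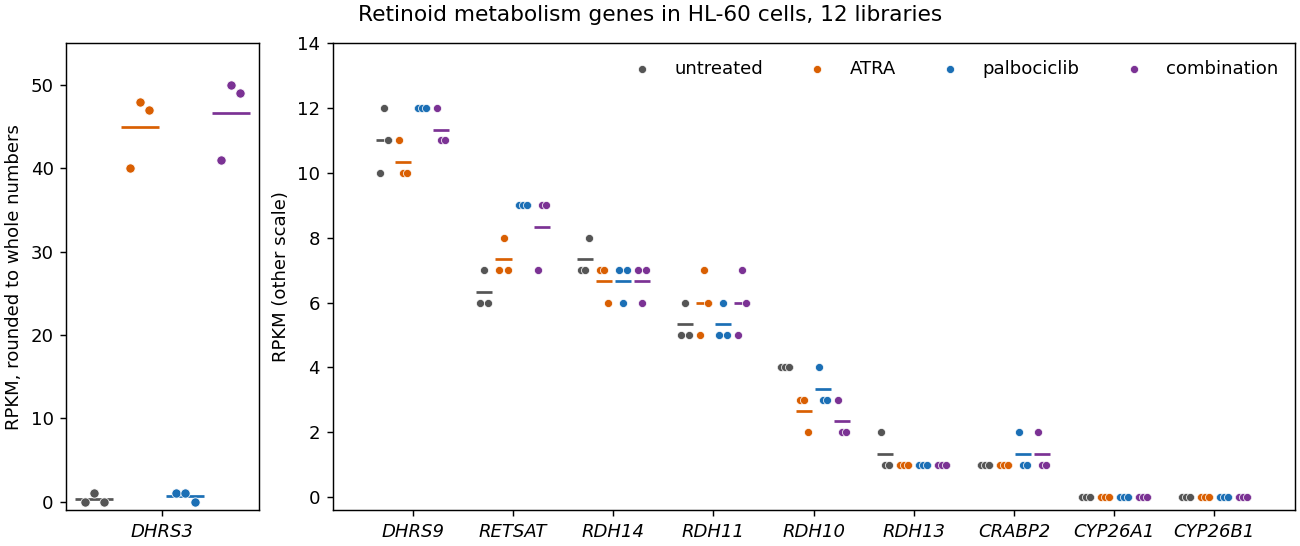
Expression of the 10 genes in each of the 12 libraries, in RPKM rounded to whole numbers, with points for libraries, short lines for the mean of 3 libraries and colours for the groups. DHRS3 (left, own scale) lies at 40 to 50 RPKM in the 6 libraries with ATRA and at 0 or 1 in the 6 without it, while the other 9 genes (right) stay between 0 and 12 RPKM in every group.

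Because the low groups lie at the rounding step, the size of the DHRS3 change is best given as a lower bound. If values were rounded to the nearest whole number, the mean with ATRA was at least 53.4-fold higher than in untreated cells, and at least 33.8-fold higher if they were cut down to it. The corresponding bounds were 39.6-fold and 28.0-fold for the combination over palbociclib, and 55.4-fold and 35.0-fold for the combination over untreated cells. The 3 bounds show a rise by more than an order of magnitude whether or not palbociclib was present.

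The tests used limma on log2(RPKM + 0.1) over all 12 libraries, with Benjamini-Hochberg adjustment over all 7820 genes that reached 5 RPKM in at least 3 libraries, and 0.001 as the threshold on the adjusted p for a call. Of the 10 genes, DHRS3, DHRS9, RETSAT, RDH11 and RDH14 passed this filter, DHRS3 only through the 6 libraries with ATRA. The filter itself therefore favoured a rise with ATRA in DHRS3. Its calls, its rank and its place among the 5 tested members are descriptive for that reason. Fold changes on this scale, and their SE, depend on the added 0.1 where values are near 0. For DHRS3 with ATRA against untreated cells the SE was 1.00 with 0.1 added, 0.47 with 0.5 and 0.30 with 1.

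For ATRA against untreated cells, DHRS3 was the only member of 5 called, where 4.72% of all tested genes were called. Its log2 fold change was 7.66 (SE 1.00, adjusted p = 0.000384). It ranked 2 from the top of 7820 genes by fold change, after FGR, a Src-family kinase gene, at 8.46. Both the call and the rank were favoured by the filter, which DHRS3 passed only through libraries with ATRA. Its call was lost when ATRA replicate 1, 2 or 3, untreated replicate 1 or 3, or combination replicate 2 or 3 was left out, with adjusted p between 0.000165 and 0.0035 over the 12 fits that leave out 1 library each. It was also lost with the filter lowered to 1 RPKM in 3 libraries (adjusted p = 0.00199) or in any library and with only the groups compared (0.00955). With a pseudocount of 1 in place of 0.1 the log2 fold change was 5.19 (SE 0.30, adjusted p = 1.25e-06), and DHRS3 then ranked 1. At an adjusted p under 0.05, 20.3% of genes passed, and DHRS3 remained the one member among them.

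The combination against untreated cells gave DHRS3 a log2 fold change of 7.71 (SE 1.00, adjusted p = 0.000234), the one member of 5 called where 8.04% of genes were called. The call was lost without untreated replicate 1 or 3 or without combination replicate 1, 2 or 3, with adjusted p from 0.000111 to 0.0022, and under the same 3 settings (highest 0.00646). Averaged over both backgrounds, 6 libraries with ATRA against 6 without it, the ATRA effect on DHRS3 was 7.11 (SE 0.71, adjusted p = 2.93e-05), where 9.62% of genes were called. That call held in all 19 alternatives run, with adjusted p between 4.49e-08 and 0.000258.

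For the combination against palbociclib, DHRS3 did not pass the threshold, with a log2 fold change of 6.56 (SE 1.00, adjusted p = 0.00142), so that 0 of 5 members were called where 3.11% of genes were. No library of either group overlapped the other, and DHRS3 ranked 3 by fold change. With the replicate number as a block, which pairs the treated libraries, the adjusted p from limma was 0.000933. With a pseudocount of 1 the log2 fold change was 4.90 (SE 0.30, adjusted p = 2.10e-06 from limma). It also passed without untreated replicate 2 (adjusted p = 0.000599), and at 0.05 it was the one member called, where 12.5% of genes passed.

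**Figure D2:**
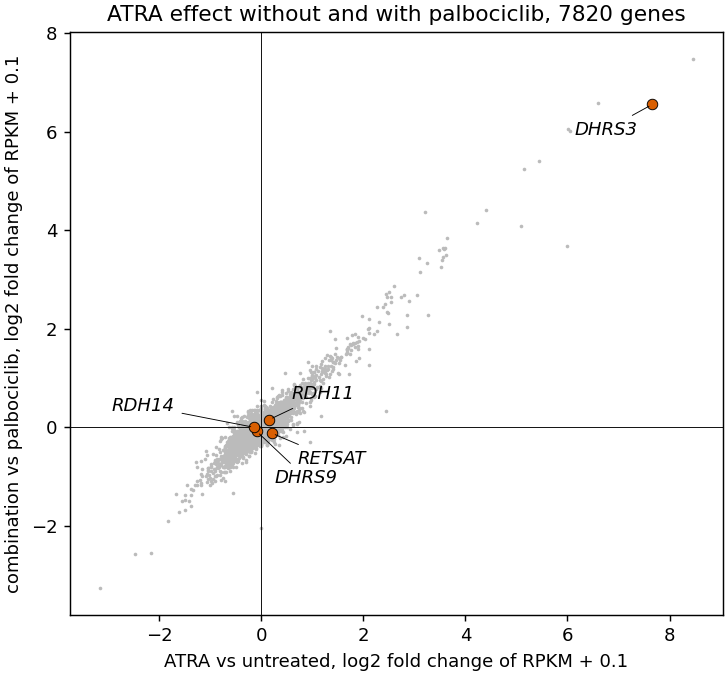
Log2 fold change of RPKM + 0.1 for ATRA against untreated cells (horizontal) and for the combination against palbociclib (vertical), with a grey point for each of 7820 tested genes and orange points for the 5 tested members. DHRS3 lies at 7.66 and 6.56, far from the bulk of genes, and the other 4 members lie near 0 on both axes. The axes share no libraries, but they are not independent. Deviations from the group means correlated at 0.782 to 0.908 between same-numbered ATRA and combination libraries.

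Between the combination and ATRA the DHRS3 values lay close together. In libraries of the same replicate number it was higher with the combination than with ATRA in 3 of 3 pairs, by 1, 2 and 2 RPKM, which is at or near the rounding step. In the fit over all libraries the log2 fold change was 0.05 (SE 1.00, adjusted p = 1). A fit of these 6 libraries alone, added after the data had been seen, gave a ratio of 1.04 with a 95% interval of 0.847 to 1.27, and with the replicate block 1.02 to 1.06 (adjusted p = 0.118 from limma over all genes). Among all genes 0% were called between the combination and ATRA, with 287 genes at an unadjusted p under 0.05, and none of the 5 members was among those. For the departure from additivity of both drugs (interaction), DHRS3 stood at -1.10 (SE 1.42, adjusted p = 1). Of all genes 0% were called, with 236 at an unadjusted p under 0.05, again with none of the members. The DHRS3 term rests mostly on untreated and palbociclib values of 0 or 1 RPKM. With a pseudocount of 1 it was -0.28.

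Palbociclib alone gave DHRS3 a log2 fold change of 1.15 (SE 1.00, adjusted p = 0.631), which reflects values of 0 or 1 RPKM in both groups. DHRS3 made up 0.909% of the summed mean RPKM of the 10 genes in untreated cells and 1.69% with palbociclib, against 56.2% with ATRA and 55.8% with the combination. The sums were 36.7, 39.3, 80.0 and 83.7 RPKM in the same order. Those with ATRA differed from those without it mainly by this gene.

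None of the other 4 tested members passed the threshold in any of the 8 comparisons. DHRS9, which encodes an enzyme that oxidises retinol and certain steroids, had the highest level of the 10 genes in untreated cells. Its values were 10, 12 and 11 RPKM untreated, 11, 10 and 10 with ATRA, 12, 12 and 12 with palbociclib and 12, 11 and 11 with the combination. Each treated group overlapped the untreated one, and its log2 fold changes against untreated cells were -0.09 with ATRA, 0.13 with palbociclib and 0.05 with the combination (adjusted p = 0.466, 0.426 and 0.685 from limma). The 95% interval for ATRA was -0.25 to 0.08.

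RDH11, a retinaldehyde reductase gene, had values of 5, 6 and 5 RPKM untreated, 5, 7 and 6 with ATRA, 5, 6 and 5 with palbociclib and 5, 7 and 6 with the combination. The values were the same in the libraries with ATRA whether or not palbociclib was given, and the same in those without ATRA. The averaged ATRA effect was 0.16 (SE 0.11, adjusted p = 0.31). Values were the highest in replicate 2 of each group, and in the fit with the replicate block the SE was 0.05 and the adjusted p = 0.034, where 43% of all genes passed at 0.05.

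RDH14, a reductase gene of the same family, was at 7, 7 and 8 RPKM untreated, 7, 7 and 6 with ATRA, 7, 6 and 7 with palbociclib and 7, 6 and 7 with the combination. The mean was lower by the same amount in each treated group, at a log2 fold change of -0.14 (SE 0.10), with adjusted p = 0.392, 0.554 and 0.346 in that order. All groups overlapped.

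RETSAT, which encodes the enzyme that saturates a double bond of retinol, had the lowest adjusted p from limma among the tested members for palbociclib against untreated cells. Its values were 6, 7 and 6 RPKM untreated, 7, 8 and 7 with ATRA, 9, 9 and 9 with palbociclib and 7, 9 and 9 with the combination. The palbociclib libraries were all above every untreated one, whereas ATRA and combination libraries overlapped untreated at 7 RPKM. The share of all tested genes with groups separated in this way was not computed. The mean with palbociclib was 1.42-fold that of untreated cells, and between 1.24- and 1.63-fold once rounding to the nearest whole number is allowed for.

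The log2 fold change of RETSAT with palbociclib was 0.50 (SE 0.11, adjusted p = 0.0276), short of the threshold, so that 0 of 5 members were called where 0.499% of genes were. At an adjusted p under 0.05 it was the one member to pass, where 4.07% of genes passed. Over the fits without 1 library the adjusted p ran from 0.009 to 0.104. With the combination against untreated cells it was 0.38 (SE 0.11, adjusted p = 0.0193), passing at 0.05 together with DHRS3 where 30.4% of genes passed. The averaged palbociclib effect on RETSAT was 0.34 (SE 0.08, adjusted p = 0.031), which again failed the threshold, at which 0.575% of genes and 0 members were called, and passed at 0.05, as did 4.37% of genes.

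The change of RETSAT with ATRA was 0.21 (SE 0.11, adjusted p = 0.201). On the log2 scale the combination fell short of the sum of both drugs by 0.33 (the interaction term, -0.33, SE 0.15, adjusted p = 1), which was not past the threshold. Adding palbociclib to ATRA gave 0.18 (SE 0.11, adjusted p = 1). A further gene, ELMOD3, overlaps 3.41% of the exonic bases of RETSAT on the opposite strand and was at 2 RPKM in every library.

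**Figure D3:**
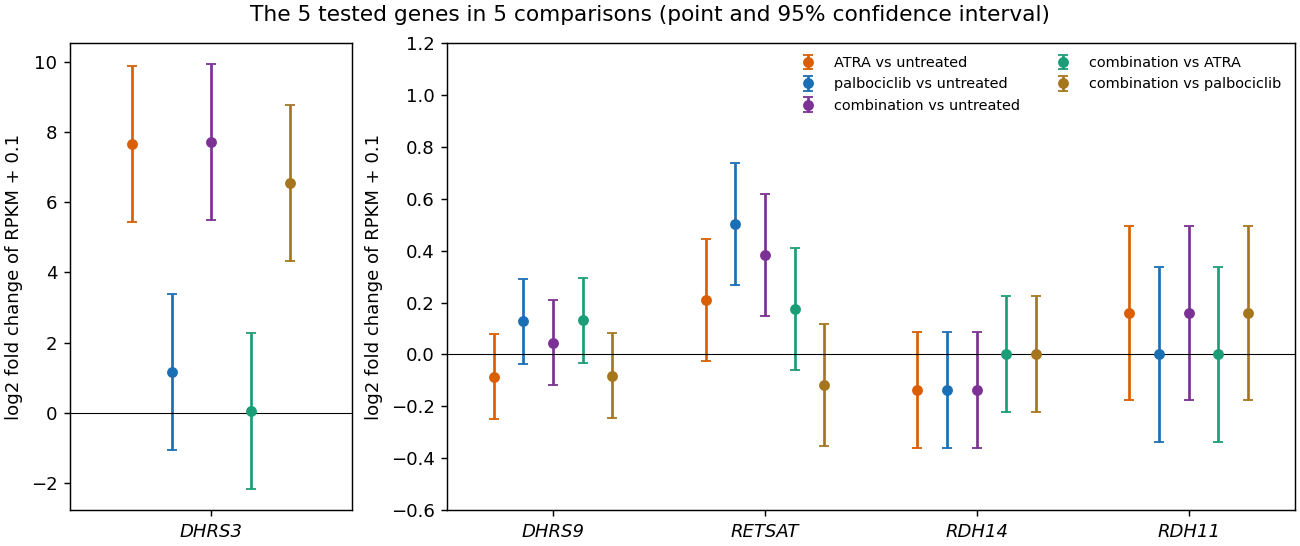
Log2 fold change of RPKM + 0.1 with its 95% confidence interval from limma for the 5 tested genes (DHRS3 left, with its own scale) in 5 comparisons marked by colour. DHRS3 lies at 6.56 to 7.71 in the 3 comparisons that add ATRA, and at 1.15 and 0.05 in those that add palbociclib alone, while RETSAT lies highest with palbociclib, at 0.50.

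RDH10, which encodes the main retinol dehydrogenase of embryonic tissues, lies on chromosome 8 and was too low for the main filter. Its values were 4, 4 and 4 RPKM untreated, 3, 3 and 2 with ATRA, 4, 3 and 3 with palbociclib and 3, 2 and 2 with the combination. Each ATRA and each combination library was below each untreated library, while palbociclib libraries reached the untreated level. How many of all genes had groups separated in this way was not computed. The mean with ATRA was 0.667-fold that of untreated cells, with 0.481 to 0.905 allowed by rounding, and with the combination it was 0.583-fold, with 0.407 to 0.810.

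Under the wider filter, 1 RPKM in at least 3 libraries (14003 genes), RDH10 had a log2 fold change of -0.59 with ATRA (SE 0.20, adjusted p = 0.0952) and -0.78 with the combination (SE 0.20, adjusted p = 0.026). With palbociclib it was -0.27 (adjusted p = 0.642). The averaged ATRA effect was -0.55 (SE 0.14, adjusted p = 0.0259). None passed 0.001. The share of the 14003 genes with an adjusted p under 0.05 was not computed. Under the main filter 30.4% of genes passed at 0.05 for the combination against untreated cells. For the averaged ATRA effect that share was 28.4%. The fitted differences had the opposite sign to those of DHRS3, and a link between both genes was not tested. Means differed by 1.33 RPKM with ATRA in RDH10 against 44.7 RPKM in DHRS3. An antisense gene, RDH10-AS1, overlaps 5.21% of its exonic bases and was at 0 in every library.

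**Figure D4:**
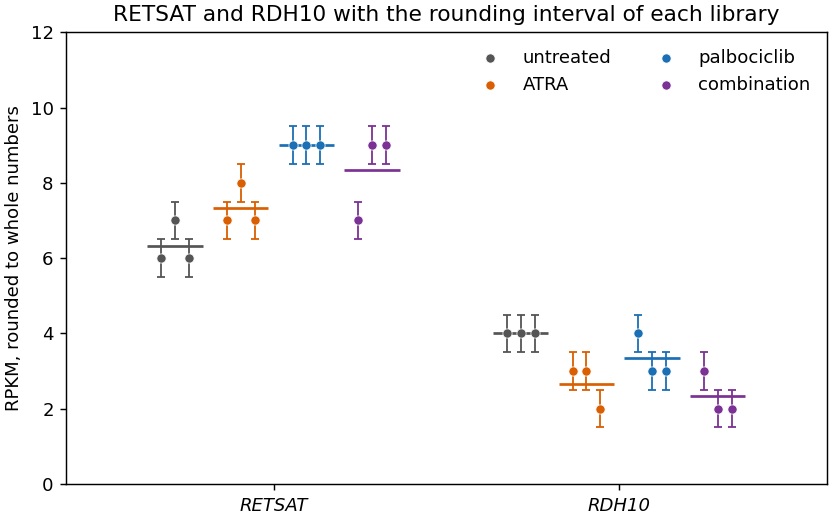
RPKM of RETSAT and RDH10 in each library, with points for the rounded value, bars for the interval that rounding to the nearest whole number leaves (0.5 either way) and lines for the mean of 3 libraries. RETSAT is at 9 in the 3 palbociclib libraries against 6 or 7 untreated, and RDH10 is at 4 in the 3 untreated libraries against 2 or 3 with ATRA and with the combination.

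RDH13, a reductase gene whose product is mitochondrial, and CRABP2, which encodes the cellular protein that carries retinoic acid to its receptors, were near the rounding step. RDH13 was at 2, 1 and 1 RPKM untreated and at 1 in all 9 other libraries. CRABP2 was at 1 in every untreated and every ATRA library and at 2, 1 and 1 with palbociclib and with the combination. Under the wider filter the log2 fold change of CRABP2 with ATRA was 0 (95% interval -0.68 to 0.68). Neither gene showed a difference larger than the step of 1 RPKM.

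CYP26A1 and CYP26B1, which encode the hydroxylases that clear retinoic acid, were listed at 0 in all 12 libraries. No fold change can be given and a difference was not detectable at this resolution, with ATRA or without. CYP26A1 (chr10:93073475-93077885, plus strand) shares 25.3% of its exonic bases, 750 of 2964, with the long non-coding gene ENSG00000285846 on the same strand, a gene with no row in the table. Reads in shared exons cannot be assigned to 1 gene by a counter that drops ambiguous reads, which applies only if both genes were annotated. Genes at 0 in every library kept their rows, so the missing row gives no sign that ENSG00000285846 was in the annotation used. An effect of the overlap on the level of CYP26A1 was not tested.

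Exons of other genes overlap 3 further members on the same strand. The readthrough gene NT5C1B-RDH14 covers 16.6% of the exonic bases of RDH14, and unnamed genes cover 6.29% of RDH11 and 9.59% of RDH13. All of these were at 0 in every library.

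The order of the 10 genes by mean RPKM changed with ATRA only through DHRS3 and pairs of near neighbours. In untreated cells it ran from DHRS9 through RDH14, RETSAT, RDH11, RDH10, RDH13, CRABP2 and DHRS3 to both CYP26 genes. The ranges of RDH14 and RETSAT, of RETSAT and RDH11, and of RDH13, CRABP2 and DHRS3 overlapped their neighbours. With ATRA and with the combination DHRS3 came first, with no overlap with DHRS9, and RETSAT stood just before RDH14, whose ranges overlapped. With palbociclib RETSAT (9 RPKM in each library) lay clear of RDH14 (6 or 7).

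As a description of the wider family, symbols of DHRS or RDH with a number and at most a short suffix were taken. This choice was made after the values were seen. The table held 21 of them, 7 at 0 in every library. Other symbols with these beginnings, such as RDH10-AS1, were not counted. For the 20 other than DHRS3 the ATRA mean differed from the untreated mean by at most 1.33 RPKM in either direction, the lowest being RDH10 at -1.33. The difference for DHRS3 was 44.7 RPKM.

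A list of 50 further genes of retinoid metabolism was described alongside, covering carriers, esterases, aldehyde dehydrogenases and other oxidases. Of these 49 had a row and 35 were at 0 in every library, and 11 were tested. None of the 11 was called in any of the 8 comparisons at an adjusted p under 0.001 from limma, while 3 were at an unadjusted p under 0.05 for ATRA against untreated cells, as were 33.1% of all genes. The median log2 fold change of the 11 with ATRA was 0.00, against 0.16 for the 5 members tested and -0.01 for all 7820 genes. The 5 include DHRS3 and the 11 include CYP1B1, which both passed the filter only through libraries with ATRA. The 0.16 is the value of RDH11 (adjusted p = 0.521 from limma), with DHRS3 and RETSAT above it and DHRS9 and RDH14 below it.

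The 5 with the highest mean were CES1, an esterase gene, FABP5, a fatty acid and retinoic acid carrier gene, LPL, the lipoprotein lipase gene, HSD17B11 and ADH5. CES1 was at 84, 84 and 85 RPKM untreated and at 94, 80 and 93 with ATRA, groups that overlapped. FABP5 was at 71, 66 and 66 RPKM untreated and at 78, 57 and 53 with ATRA, and varied between replicates with ATRA more than between groups. HSD17B11 and ADH5 were at 30 to 41 and 22 to 25 RPKM over all 12 libraries.

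LPL was at 70, 61 and 63 RPKM untreated, 58, 50 and 50 with ATRA, 60, 56 and 59 with palbociclib and 57, 48 and 47 with the combination. CYP1B1, a cytochrome P450 gene whose product can oxidise retinol, was at 3, 4 and 3 RPKM untreated, 4, 5 and 5 with ATRA, 3, 4 and 4 with palbociclib and 5, 6 and 5 with the combination. LPL and CYP1B1 were named after their values were seen, as the 2 genes of the list that passed at 0.05. CYP1B1, like DHRS3, reached 5 RPKM only in libraries with ATRA, so the filter itself favoured a rise with ATRA in this gene. With ATRA averaged over both backgrounds, where 28.4% of all genes passed at 0.05, LPL had a log2 fold change of -0.25 (SE 0.06, adjusted p = 0.0118) and CYP1B1 one of 0.51 (SE 0.11, adjusted p = 0.00634). They passed at 0.001 only with the replicate block, at adjusted p = 0.000346 and 0.000556, where 16.1% of all genes passed for the averaged ATRA effect and 15.4% for the combination against untreated cells, although untreated and treated libraries of the same number did not all deviate together.

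No member was called both for ATRA against untreated cells and for the combination against palbociclib, so no gene was named by the rule for likeness. Among the tested genes outside the list, chosen after the values were seen, the pattern over the 12 libraries closest to that of DHRS3 was that of EPOR (Pearson r = 0.987), PRAM1 (0.981) and KDELR1 (0.979). EPOR was at a mean of 3.33 RPKM untreated, 5.67 with ATRA, 3.67 with palbociclib and 6 with the combination, and the r values rest on 2 clusters of libraries, with and without ATRA. EPOR, like DHRS3, reached 5 RPKM only in libraries with ATRA, so the filter itself favoured this pattern. The r values describe likeness of pattern and not of size.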

How the data were processed

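Expression was measured by RNA sequencing of polyadenylated RNA in 12 HL-60 libraries, 3 per group, grouped by the treatment in the labels. The authors mapped reads to hg38 with HISAT2 and used htseq-count with default options for gene counts (tool versions are not given in the sources used here). The deposited score values are RPKM that the authors rounded to whole numbers; replicates were not pooled. The study tested counts with voom, and counts are not part of the values used here, so limma 3.58.1 in R 4.3.3 (lmFit, eBayes with trend) was fitted to log2(RPKM + 0.1), with the filter, threshold and adjustment given above. Python 3.11.15 was used for tables and plots.

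The members, the list of other retinoid genes, the filter and the tests were chosen with earlier results of these data known. The genes named were the 10 members, of the further list those called plus the 5 highest by mean, and by likeness those most correlated with a member called with ATRA in both backgrounds. Replicates shared 17.9% to 36.5% of their values over 7820 genes, and no pair of replicates within a group was identical. Deviations from the group means correlated between same-numbered libraries at 0.782 to 0.908 (ATRA and combination), 0.497 to 0.751 (ATRA and palbociclib) and 0.438 to 0.702 (palbociclib and combination), which pairs the treated libraries by number, whereas with untreated libraries they were 0.0453 to 0.367. Alternatives were other filters, pseudocounts, scaling, the block, the variance model, the groups fitted and leaving out each library. The fit was tested on data simulated with independent libraries. Libraries that deviate together by number were not simulated. Nor were genes set up at the rounding step in the groups without ATRA, as DHRS3 was.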

Additional observations from a re-analysis of the deposited data

How the results depend on the processing

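The number of members called at an adjusted p under 0.001 rested on DHRS3, and the cause of each change below was not tested. For ATRA against untreated cells it fell from 1 to 0 with the filter at 1 RPKM in 3 libraries, with 1 RPKM in any library and with only the groups compared, and was 0 to 1 when 1 library was left out. The same 3 settings took the combination against untreated cells from 1 to 0, the threshold of 0.05 took it to 2, and leaving out 1 library gave 0 to 1. For the combination against palbociclib it rose from 0 to 1 with a pseudocount of 0.5 or of 1, with median ratio scaling, with the replicate block and at 0.05, and was 0 to 1 when 1 library was left out. At 0.05 it rose from 0 to 1 for palbociclib against untreated cells and for the averaged palbociclib effect. Of the other retinoid genes, 0 were called, against 2 with the replicate block and 2 at 0.05 (alternatives added after the data had been seen). Of all genes, 15.4% and 16.1% passed with the block in the 2 comparisons concerned, and 20.3% to 30.4% at 0.05 in the 3 where either gene passed. The replicate block changed no other call of a member at 0.001, and at 0.05 it changed 1, that of RDH11 for the averaged ATRA effect (adjusted p = 0.31 without and 0.034 with it). Without 1 library the log2 fold change of DHRS3 between the combination and ATRA lay between -0.031 and 0.14, that of DHRS9 between the combination and untreated cells between -0.021 and 0.11, and the interaction term of DHRS9 between -0.060 and 0.070, so that these 3 changed sign and none was called. The order of levels by medians in place of means moved 2 members, CRABP2 and RDH13. The fit of only the groups compared could not be made for the interaction and averaged effects, which use all groups. Whole-number RPKM limit what low genes can show, and read depth was not used.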
